A study of Rattus norvegicus with 18 samples.

Results

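Elastic fibres give vessels, valves and lungs their recoil. The genes described here are elastin and the proteins that assemble it: Eln, Fbn1, Fbln1, Fbln2, Fbln5, Efemp2, Emilin1, Lox, Loxl1 and Mfap5. Eln was taken up because earlier results of these arrays had set it apart between the media of this study. The other genes were chosen by their known part in elastic fibre assembly, but with earlier results of these data known. Probes were taken wherever the platform annotation gave a member's symbol. The larger array design held all 10 genes (of 12198 named genes) on 12 of its 33849 probes, and the smaller one held 6 of them (of 6455) on 6 of its 9906 probes.

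The samples were neonatal rat heart muscle cells, isolated from ventricles of day 1 animals (n = 24), enriched on Percoll gradients and cultured in cardiac medium for 24 h. Time zero samples (n = 6) were extracted at that point. In the remaining dishes 50% of the medium was replaced by hESC medium that was either unconditioned or conditioned by stem cells, with FBS at 5% and HS at 10% in both. Extraction followed at 24 h or 48 h, with 3 samples for each medium and time. The 12 arrays of the larger design held 4 time zero samples and 2 of every other group, and the 6 arrays of the smaller design held 2 time zero samples and 1 of every other group. All groups share the same cell isolation as the labels describe it, and these do not say whether dishes came from separate preparations, so the p-values measure the spread between dishes or arrays, which may be technical.

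Elastic fibres are built outside the cell. Tropoelastin, the soluble monomer encoded by Eln, is deposited on a scaffold of fibrillin microfibrils, guided there by short fibulins and cross-linked by lysyl oxidases, which need copper. In the developing heart and great vessels these proteins come mainly from smooth muscle cells, fibroblasts and valve cells, so in a cardiomyocyte preparation they may come from a minority of the cells. In such bulk samples, fewer cells of a type and less RNA per cell cannot be told apart.

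Values below are intensities scaled to a common array median, with one probe per gene unless stated. The floor lay at 4.78 on the larger design and at 14.7 on the smaller one. Log2 changes are given after subtracting the median change over all probes, with the standard error of the fit. That median shift was 0.187, 0.182, 0.012 and 0.163 for unconditioned 24 h, conditioned 24 h, unconditioned 48 h and conditioned 48 h against time zero. Adjusted p-values come from limma over all 23694 probes that passed a filter on mean intensity and test the change before that subtraction. A call means an adjusted p under 0.05. Of the 12 member probes on the larger design, 10 passed the filter. The array number limits the precision.

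Some arrays stood apart in the spread of all their probes. The upper quartile divided by the lower one was 22.5 and 22.4 on time zero replicates 4 and 5 and 25.7 on unconditioned 48 h replicate 2, against 38.7 to 47.8 on the other 9 arrays of the larger design. Time zero replicates 4 and 5 both lay below replicates 3 and 6 for 7 of the 10 member probes tested, and unconditioned 48 h replicate 2 lay below replicate 3 for 8 of the 10. The share of all probes in these orders was not counted, so they do not set the members apart. In the smaller design both conditioned arrays had ratios of 16.6 and 16.3, against 27.2 to 54.1 on the other arrays. Heart muscle genes were present throughout: none of the 8 cardiomyocyte markers on the larger design was at the floor in any whole group, and none of the 8 was called against time zero.

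Elastin itself was the only one of the 10 genes with a lower call. Eln (probe 251057) had intensities of 2429, 1135, 1077 and 1683 on the 4 time zero arrays. It read 2208 and 3066 in unconditioned medium at 24 h and 2173 and 4308 at 48 h. In conditioned medium it read 607 and 595 at 24 h and 331 and 399 at 48 h. Every conditioned array lay below every time zero array and every unconditioned array, and the 48 h conditioned arrays lay below the 24 h ones. The unconditioned arrays overlapped with time zero and with each other.

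Against time zero, Eln fell by 2.20 ± 0.37 on the log2 scale in conditioned medium at 48 h (adjusted p = 0.0021). At 24 h in conditioned medium the change was -1.50 ± 0.37 and was not called (adjusted p = 0.062). In unconditioned medium the changes were 0.61 ± 0.37 at 24 h (adjusted p = 0.48) and 1.02 ± 0.37 at 48 h (adjusted p = 0.18). These tests use the same conditioned arrays that had brought Eln to attention and are not independent of that choice. Without conditioned 48 h replicate 2 the 48 h change of Eln was -2.10 and no longer called (adjusted p = 0.068), the only one of 25 alternatives with a test that ended this call, with adjusted p-values from 2.8e-07 to 0.068. The 24 h change was called in 11 of the 25, with changes from -1.73 to -1.34 and adjusted p-values from 5.0e-05 to 0.47. Among these were the fits without time zero replicate 4 (adjusted p = 0.025) and without unconditioned 48 h replicate 2 (0.033) or 3 (0.038). Without the 3 arrays that stood apart, Eln changed by -1.73 at 24 h (adjusted p = 6.1e-04) and -2.44 at 48 h (adjusted p = 3.8e-05) in conditioned medium, and by 1.10 in unconditioned medium at 48 h (adjusted p = 0.036).

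The difference between media is a description for Eln, since it was the basis of its choice. On the larger design conditioned minus unconditioned medium came to -2.12 ± 0.43 at 24 h and -3.25 ± 0.43 at 48 h. The smaller design measured Eln with another probe (21741) on other samples. There it read 504 and 588 at time zero, 1058 (unconditioned) and 220 (conditioned) at 24 h, and 876 and 156 at 48 h. Relative to the median probe, its difference between media was -1.98 at 24 h and -2.11 at 48 h, with 1 array a group and so no test. The conditioned arrays were again the lowest and the unconditioned ones the highest. On this design the conditioned arrays also had the narrowest spread of all probes (quartile ratios of 16.6 and 16.3). Medium and array spread therefore cannot be told apart there, for any probe.

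**Figure D1:**
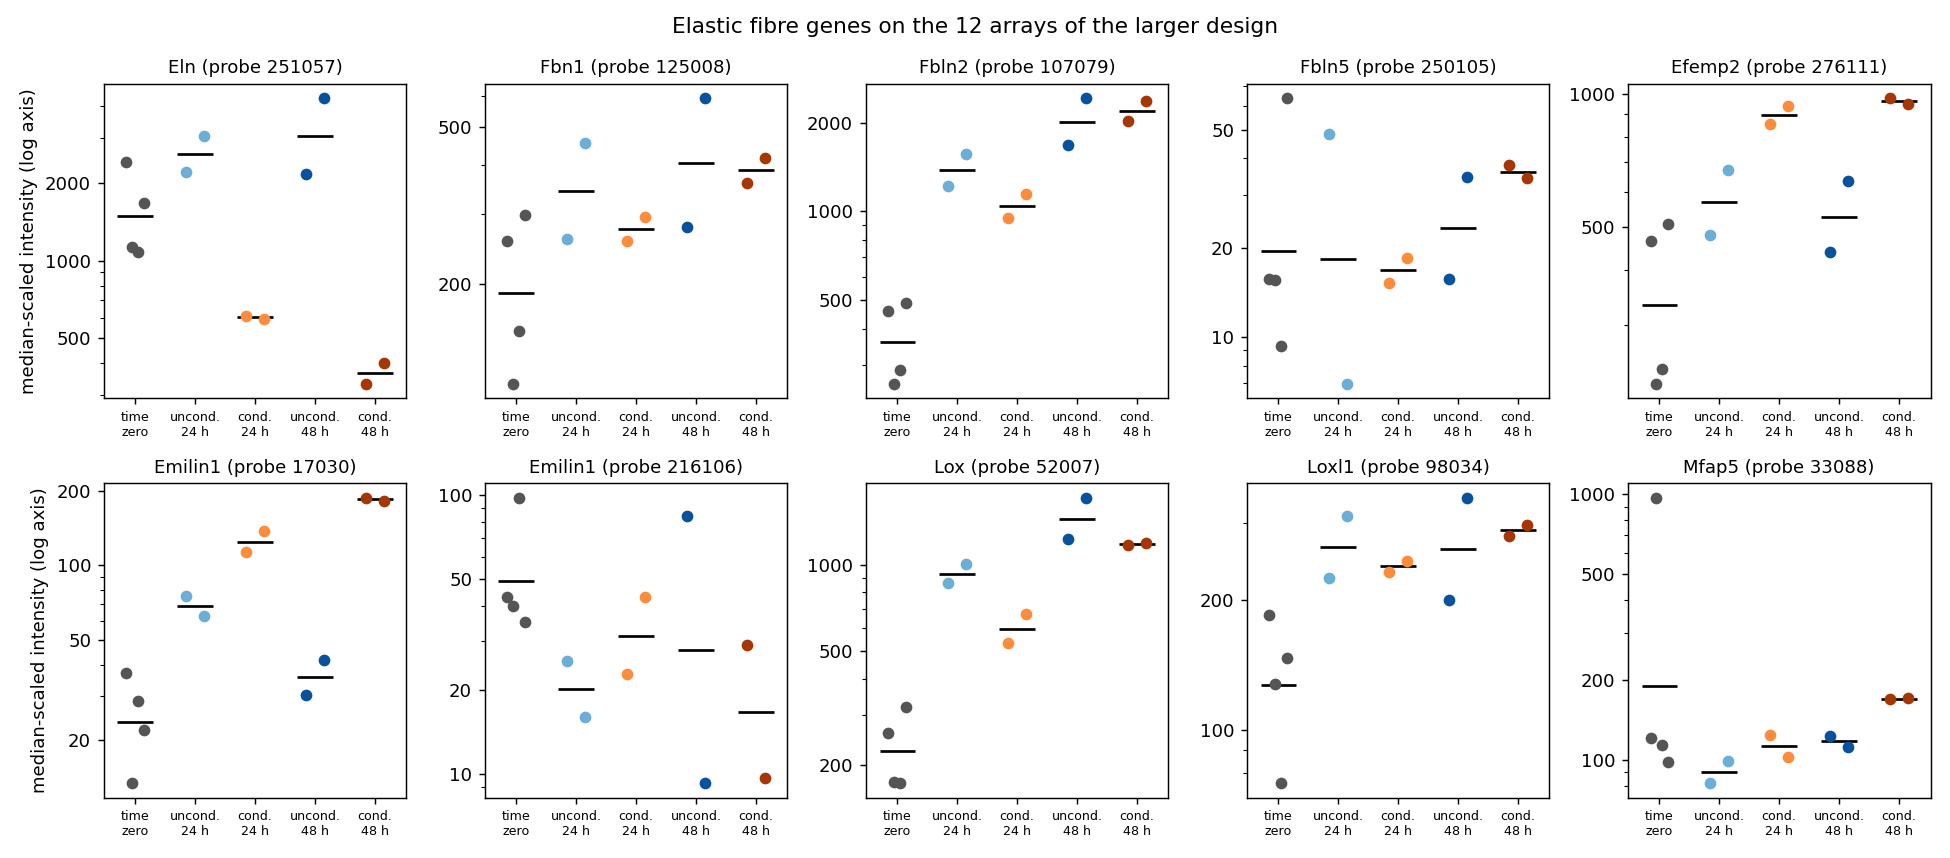
Scaled intensity (log axis) of the 10 member probes that passed the filter, for the 5 groups of the larger design. Points are arrays (4 at time zero, 2 in each other group) and bars are group means of log2 values. Eln lies between 331 and 607 on the conditioned arrays and above 1000 on all others, Lox and Fbln2 are lowest at time zero, and the probes of Emilin1 differ in pattern.

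Lysyl oxidase, the enzyme that starts cross-linking of elastin and collagen by oxidising lysines, was lowest at time zero. Lox (probe 52007) read 260, 175, 173 and 319 at time zero. In unconditioned medium it read 864 and 1001 at 24 h and 1223 and 1708 at 48 h, while conditioned medium gave 533 and 673 at 24 h and 1171 and 1191 at 48 h. The order of the groups was time zero, conditioned 24 h, unconditioned 24 h, conditioned 48 h and unconditioned 48 h, with no overlap of arrays between neighbours.

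Lox rose against time zero in all 4 comparisons. In unconditioned medium the log2 change was 1.87 ± 0.32 at 24 h (adjusted p = 0.0034) and 2.68 ± 0.32 at 48 h (adjusted p = 2.4e-04). In conditioned medium it was 1.24 ± 0.32 at 24 h (adjusted p = 0.018) and 2.24 ± 0.32 at 48 h (adjusted p = 1.3e-04). The 48 h calls held in all 24 alternatives run for this probe. The 24 h call in unconditioned medium was lost without unconditioned 24 h replicate 3 (adjusted p = 0.14; range over alternatives 7.0e-05 to 0.14). The 24 h call in conditioned medium was lost without conditioned 24 h replicate 2 or 3 (adjusted p = 0.14 and 0.39), without time zero replicate 5 (0.054), without an intensity trend (0.055) and with the compared groups fitted alone (0.056), over a range of 3.3e-04 to 0.39. Without the 3 arrays that stood apart all 4 calls of Lox held, with changes of 1.74 and 2.57 in unconditioned medium and 1.07 and 2.07 in conditioned medium. Conditioned minus unconditioned medium, given without a test, was -0.65 ± 0.37 at 24 h and -0.47 ± 0.37 at 48 h.

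Loxl1, a lysyl oxidase relative needed in the mouse for the upkeep of elastic fibres after birth, moved less. Its probe (98034) read 184, 128, 75.5 and 147 at time zero and between 200 and 343 on the 8 later arrays, all of which lay above time zero. Changes against time zero ran from 0.72 to 1.03 and none was called (adjusted p from 0.063 to 0.27). The change in conditioned medium at 48 h (1.02 ± 0.37, adjusted p = 0.063) was called in 11 of 25 alternatives with a test, with adjusted p-values from 0.0077 to 0.44. Among these were the fits without time zero replicate 3 (adjusted p = 0.039) and without unconditioned 48 h replicate 2 (0.044) or 3 (0.049). The unconditioned 48 h arrays spanned those of both conditioned groups, while the conditioned arrays were higher at 48 h (281 and 297) than at 24 h (232 and 245). On the smaller design Loxl1 read 147 and 208 at time zero, 258 and 331 in unconditioned medium at 24 h and 48 h, and 233 and 210 in conditioned medium.

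Among the fibulins, which bridge elastin and the microfibrils, Fbln2 and Efemp2 carried the calls. Fibulin 2 is abundant in developing valves and vessel walls, and Efemp2 (fibulin 4) is needed in the mouse for Lox to be brought to elastin. The promoters of these genes are shown because both were called against time zero in conditioned medium, while only Fbln2 was called in unconditioned medium. They run from 250 bases before to 50 bases after the start used (RefSeq, GRCr8, plus strand), at chr4:125261409-125261708 for Fbln2 and chr1:212211472-212211771 for Efemp2. Each start used lies past the first annotated base of its gene, 125261464 for Fbln2 and 212211057 for Efemp2. Other starts were not examined. Capitals mark the GC box GGGCGG on either strand.
Fbln2: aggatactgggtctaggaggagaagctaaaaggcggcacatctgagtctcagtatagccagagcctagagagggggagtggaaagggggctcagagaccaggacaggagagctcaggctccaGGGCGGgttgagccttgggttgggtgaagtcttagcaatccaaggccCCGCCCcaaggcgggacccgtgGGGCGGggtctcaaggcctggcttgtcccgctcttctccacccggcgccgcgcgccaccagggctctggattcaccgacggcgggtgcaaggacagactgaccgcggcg
Efemp2: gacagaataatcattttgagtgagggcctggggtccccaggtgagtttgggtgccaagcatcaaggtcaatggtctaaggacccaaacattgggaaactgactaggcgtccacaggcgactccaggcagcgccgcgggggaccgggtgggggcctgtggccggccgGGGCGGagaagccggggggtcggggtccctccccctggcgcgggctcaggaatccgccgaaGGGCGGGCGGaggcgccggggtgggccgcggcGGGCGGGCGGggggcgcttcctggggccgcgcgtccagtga
Fbln2 held 3 matches and Efemp2 held 5, counting those that overlap, and 33.1% of 33469 RefSeq promoters of 300 bases hold at least 1. Of the 10 genes, 6 had a promoter in the table. Fbln5 had 1 GC box match, and Fbn1, Loxl1 and Mfap5 had 0. Neither TATAAA, held by 14.2% of all promoters, nor TGANTCA (the AP-1 site), held by 7.3%, was found in these 6 windows on either strand. CCAAT, held by 37.5%, was found 1 time in Efemp2, 2 times in Fbln5 and 1 time in Mfap5. These are matches of letters and were not tested for use.

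Fbln2 (probe 107079) read 460, 260, 290 and 487 at time zero. At 24 h it read 1222 and 1560 in unconditioned medium, and 951 and 1148 where the medium was conditioned. At 48 h it read 1677 and 2425 without and 2029 and 2376 with conditioning. All 8 later arrays lay above time zero, and the 48 h arrays of both media overlapped.

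In unconditioned medium Fbln2 rose by 1.75 ± 0.33 at 24 h (adjusted p = 0.0060) and by 2.47 ± 0.33 at 48 h (adjusted p = 4.9e-04). In conditioned medium it rose by 1.35 ± 0.33 at 24 h (adjusted p = 0.013) and by 2.44 ± 0.33 at 48 h (adjusted p = 8.3e-05). The 48 h calls held in all 25 alternatives with a test. The 24 h call was lost in unconditioned medium without unconditioned 24 h replicate 3 (adjusted p = 0.23; range 4.7e-05 to 0.23), and in conditioned medium without conditioned 24 h replicate 2 or 3 (adjusted p = 0.13 and 0.30; range 6.6e-05 to 0.30). All 4 calls of Fbln2 held without the 3 arrays that stood apart, with changes of 1.59 and 2.36 in unconditioned medium and 1.16 and 2.25 in conditioned medium. The smaller design gave 503 and 673 at time zero, 2106 and 3317 in unconditioned medium at 24 h and 48 h, and 988 and 1468 in conditioned medium. The difference between media at 48 h was -0.06 ± 0.38 on the larger and -0.80 on the smaller design.

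Efemp2 (probe 276111) read 464, 221, 238 and 506 at time zero. It read 480 and 672 in unconditioned medium at 24 h and 438 and 635 at 48 h, overlapping with time zero. In conditioned medium it read 856 and 937 at 24 h and 979 and 947 at 48 h, above every other array. Efemp2 rose by 1.24 ± 0.36 at 24 h (adjusted p = 0.039) and by 1.37 ± 0.36 at 48 h (adjusted p = 0.016) in conditioned medium. The changes in unconditioned medium were 0.58 ± 0.36 (adjusted p = 0.50) and 0.65 ± 0.36 (adjusted p = 0.47). The 24 h call was lost in 10 of 24 alternatives (adjusted p from 0.0015 to 0.42). Among them were the fits without conditioned 24 h replicate 2 (adjusted p = 0.30) or 3 (0.42), time zero replicate 5 (0.11), conditioned 48 h replicate 2 (0.067) or 3 (0.068), and unconditioned 24 h replicate 2 or 3 (0.057 for both). The 48 h call was lost in 4 of 24 (4.8e-04 to 0.18), among them without conditioned 48 h replicate 2 or 3 (0.18 for both). Without the 3 arrays that stood apart both were called, at 0.90 (adjusted p = 0.015) and 1.03 (adjusted p = 0.0057). Conditioned minus unconditioned medium was 0.65 ± 0.42 at 24 h and 0.69 ± 0.42 at 48 h, given without a test.

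The other fibulins were dim. Fbln5, which ties tropoelastin to cells and microfibrils, read 15.7, 15.5, 9.29 and 63.9 at time zero and between 6.95 and 48.3 later, and no change was called (standard errors of 1.00). The Fbln1 probe lay at the floor on all 12 arrays and was not tested. On the smaller design the Fbln5 probe was at the floor on 4 of 6 arrays, as was that of Fbn1, and both were left out by the filter.

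**Figure D2:**
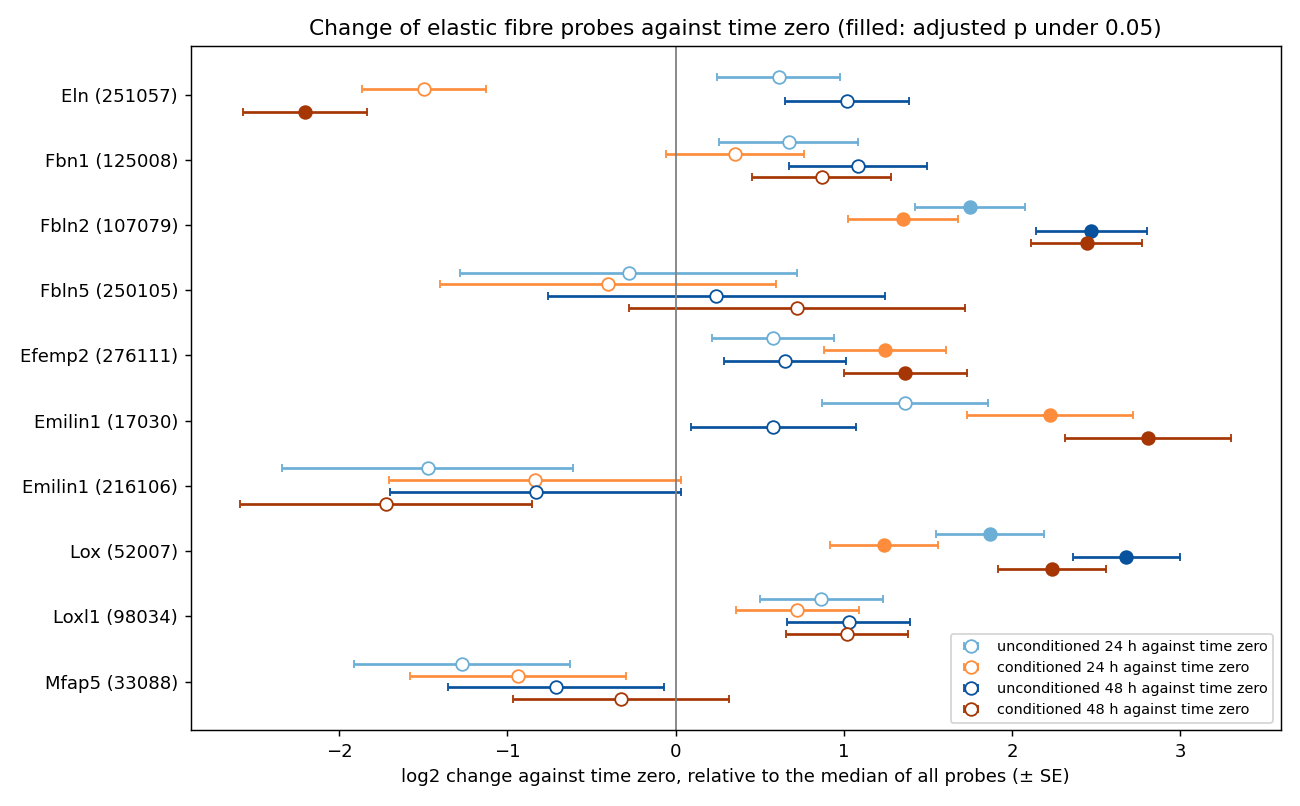
Log2 change against time zero for the 10 tested member probes, relative to the median of all probes, with bars of 1 standard error. The axis runs from lower to higher than time zero, and filled points have an adjusted p under 0.05. Lox and Fbln2 are filled and higher in all 4 comparisons, Efemp2 and Emilin1 probe 17030 in conditioned medium, and Eln is filled and lower in conditioned medium at 48 h.

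Emilin1 is a glycoprotein at the interface of elastin and microfibrils, known in the mouse to restrain TGF-beta processing. One of its probes (17030) read 37.0, 13.3, 28.4 and 21.8 at time zero. It read 75.3 and 62.9 in unconditioned medium at 24 h and 30.3 and 41.6 at 48 h. In conditioned medium it read 113 and 137 at 24 h and 187 and 182 at 48 h. The conditioned arrays lay above all others, while the unconditioned arrays were higher at 24 h than at 48 h, where they overlapped with time zero.

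Emilin1 probe 17030 rose in conditioned medium by 2.23 ± 0.49 at 24 h (adjusted p = 0.0095) and by 2.81 ± 0.49 at 48 h (adjusted p = 9.9e-04). The 48 h call held in all 23 alternatives. The 24 h call was lost without conditioned 24 h replicate 2 (adjusted p = 0.14) or 3 (0.24) and with the compared groups fitted alone (0.059), over a range of 4.2e-04 to 0.24. Without the 3 arrays that stood apart the changes were 2.15 and 2.74, both called. In unconditioned medium the changes were 1.36 ± 0.49 (adjusted p = 0.21) and 0.58 ± 0.49 (adjusted p = 0.71). Conditioned minus unconditioned medium was 0.85 ± 0.57 at 24 h and 2.20 ± 0.57 at 48 h, given without a test. The second Emilin1 probe (216106) did not follow: it ran from 35.1 to 97.7 at time zero and from 9.27 to 84.3 on the later arrays, its changes lay between -1.72 and -0.83, and none was called (adjusted p from 0.36 to 0.80). Which of the probes reads Emilin1 was not tested.

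The microfibril genes had no call with the main settings. Fbn1, fibrillin 1, the main subunit of microfibrils, read 257, 111, 152 and 298 at time zero on probe 125008 and between 256 and 592 later, and all neighbouring groups overlapped. Its changes ran from 0.35 to 1.08 (adjusted p from 0.16 to 0.60). The change in unconditioned medium at 48 h, 1.08 ± 0.41 (adjusted p = 0.21), was called in 2 of 24 alternatives, under cyclic loess (adjusted p = 0.024) and scaling to the 75th percentile (0.043), over a range of 0.024 to 0.67. A second Fbn1 probe (222106) stayed near the floor, with a highest intensity of 38.7, and was not tested. Mfap5, a small microfibril-associated glycoprotein, read 121, 972, 113 and 98.4 at time zero and between 81.5 and 171 later. Its changes of -1.27 to -0.32 rested on the array that read 972, time zero replicate 4: without it they ran from -0.39 to 0.55, and none was called either way. Its 2 conditioned 48 h arrays, at 169 and 171, were higher than all other arrays but that one. On the smaller design Mfap5 read 108 and 197 at time zero and between 119 and 193 later.

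Counted together, 2 of the 10 tested member probes were called in unconditioned medium at 24 h, both higher, where 0.815% of all probes were called, 0.739% higher and 0.0760% lower. In conditioned medium at 24 h 4 of 10 were called, all higher, against 3.17% of all probes, 2.57% higher and 0.599% lower. In unconditioned medium at 48 h 2 of 10 were called, both higher, against 2.90%, of which 2.03% higher and 0.869% lower. In conditioned medium at 48 h 5 of 10 were called against 6.47%, with 4 higher against 5.39% and 1 lower against 1.07%. That lower call was Eln, which earlier results of these arrays had brought into the set. Its part in the count is therefore not independent of its choice. All 4 comparisons share the time zero arrays. The median change over the 10 probes was 0.64, 0.54, 0.84 and 0.94 in these comparisons, while the quartiles of all probes lay at -0.42 and 0.40 in the widest of them, conditioned medium at 48 h.

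Between 24 h and 48 h no member probe was called in either medium. In unconditioned medium none of the 23694 probes was called by limma (0%), with 1234 at an unadjusted p under 0.05. In conditioned medium 1 probe was called (0.00422%). Eln changed by 0.41 ± 0.43 from 24 h to 48 h in unconditioned and by -0.72 ± 0.43 in conditioned medium. Lox changed by 0.82 and 0.99, and Fbln2 by 0.73 and 1.08. Between media, given without a test, the median over the 10 probes was -0.15 at 24 h and -0.05 at 48 h. On the larger design the conditioned and unconditioned arrays did not overlap for Eln, Efemp2 and Emilin1 probe 17030, and did for the other 9 probes. Of those 9, Fbln1 and Fbn1 probe 222106 lay at or near the floor. The share of all probes without overlap was not counted, so this does not set the members apart.

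**Figure D3:**
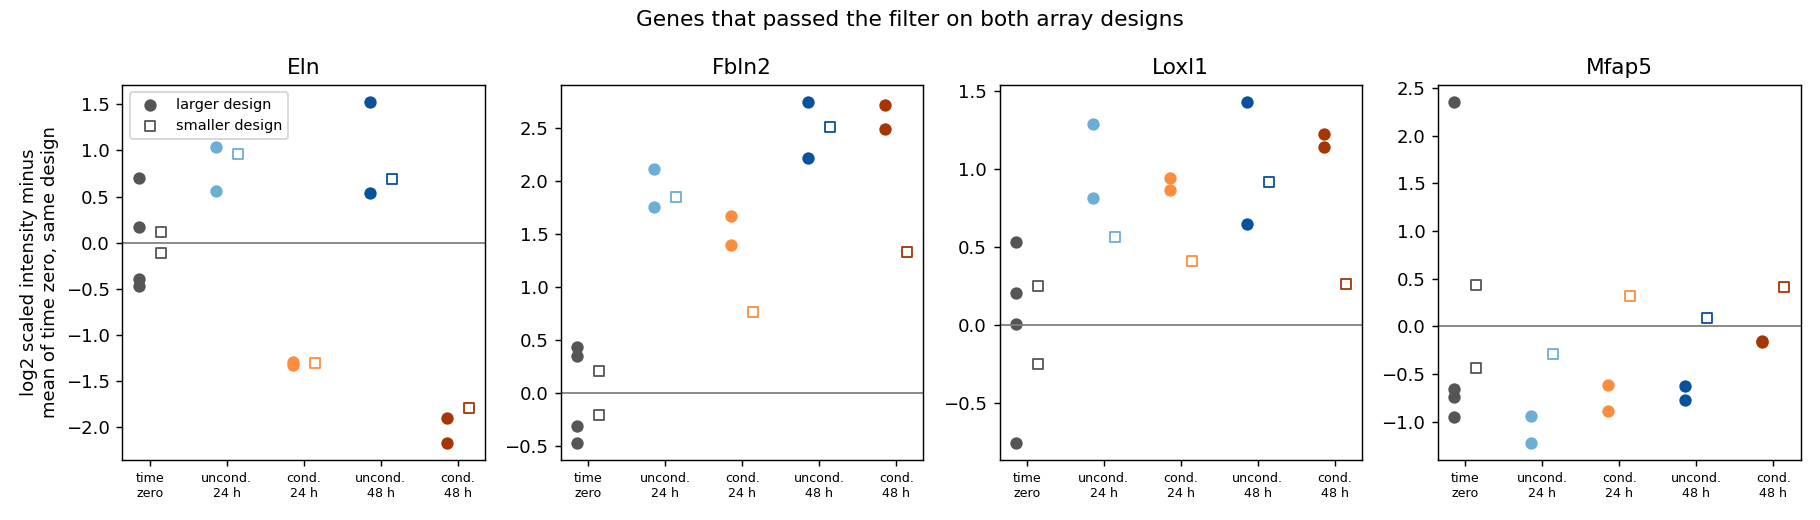
Log2 scaled intensity minus the mean of time zero on the same design, for the 4 genes that passed the filter on both designs, by group. Points are arrays of the larger and the smaller design. Eln lies below time zero on every conditioned array of both designs, and Fbln2 lies above time zero on every later array of both.

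Other genes of the pathway were read from lists set down with earlier results of these data known. Of 14 microfibril and elastic fibre partners, 11 were tested. Of these 2, 2, 3 and 4 rose in unconditioned 24 h, conditioned 24 h, unconditioned 48 h and conditioned 48 h, with none lower. Over all probes 0.739%, 2.57%, 2.03% and 5.39% were called higher in the same order, and 0.0760%, 0.599%, 0.869% and 1.07% lower. These shares also apply to the other lists and the cell type markers below. Loxl2, another lysyl oxidase, rose in all 4, from 36.1 ± 18.9 (SD, n = 4) at time zero to 465 ± 28.8 (SD, n = 2) in conditioned medium at 48 h, a change of 3.71 ± 0.46 (adjusted p = 4.7e-05). Ltbp1, which binds latent TGF-beta to the microfibril, rose in conditioned medium at 24 h by 2.77 ± 0.49 (adjusted p = 0.0018) and at 48 h by 3.86 ± 0.49 (adjusted p = 6.4e-05), and in unconditioned medium at 48 h by 2.62 ± 0.49 (adjusted p = 0.0052). Ltbp2 rose in unconditioned medium at both times and in conditioned medium at 48 h (1.25 ± 0.35, adjusted p = 0.021), and Loxl3 in conditioned medium at 48 h (1.39 ± 0.40, adjusted p = 0.024). Ltbp3 and Ltbp4 were not called (changes of 0.27 and -0.80 in conditioned medium at 48 h).

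Of 7 genes for precursor processing and copper supply, 6 were tested, and 0, 0, 1 and 2 rose in the same order of comparisons. Fkbp10, a chaperone of tropoelastin and collagen in the endoplasmic reticulum, rose at 48 h in unconditioned (1.33 ± 0.35, adjusted p = 0.047) and conditioned medium (1.43 ± 0.35, adjusted p = 0.010). Adamts10, a microfibril-associated protease, rose in conditioned medium at 48 h (0.99 ± 0.33, adjusted p = 0.042). Of 15 elastin-degrading enzymes and inhibitors, 11 were tested, and 1, 2, 2 and 4 rose, with none lower. Timp3, a matrix-bound inhibitor of metalloproteinases, rose in all 4, by 2.08 ± 0.43 (adjusted p = 0.015) and 3.02 ± 0.43 (adjusted p = 2.5e-04) at 24 h and by 2.13 ± 0.43 (adjusted p = 0.0095) and 2.96 ± 0.43 (adjusted p = 2.0e-04) at 48 h in unconditioned and conditioned medium. Timp1, a secreted inhibitor, rose in conditioned medium, by 2.11 ± 0.37 at 24 h (adjusted p = 0.0014) and 2.04 ± 0.37 at 48 h (adjusted p = 0.0011). Ctsk, cathepsin K, an elastin-cleaving protease, rose at 48 h, by 2.05 ± 0.30 in unconditioned (adjusted p = 8.9e-04) and 1.05 ± 0.30 in conditioned medium (adjusted p = 0.018). Mmp14, a membrane-bound metalloproteinase, rose in conditioned medium at 48 h (1.34 ± 0.34, adjusted p = 0.012).

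Markers of other cell types differed between the groups in their own ways. The summed intensity of 9 fibroblast markers ran from 2468 to 4381 at time zero, from 5153 to 6047 and 4349 to 5842 in unconditioned and conditioned medium at 24 h, and from 6367 to 11050 and 5579 to 6336 at 48 h. Of the 5 tested, Col1a1, Postn and Thy1 rose in unconditioned medium at 48 h and Postn in conditioned medium at 48 h. Pdgfra and Lum were at the floor on both unconditioned 48 h arrays. Over the 5 tested fibroblast markers, conditioned minus unconditioned medium had a median of -0.075 at 24 h and -0.64 at 48 h, given without a test. The fibroblast sum was lower at time zero than in any other group on all arrays but the conditioned 24 h array at 4349. It is mostly Col1a1 and Col1a2, with means of 1889 and 1271 at time zero. Lox, Fbln2 and Loxl1 were lower at time zero than on every later array, and a link to these markers was not tested.

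The sum of 7 smooth muscle and pericyte markers was 17840 to 31730 at time zero and 32770 to 55640 in the other groups. At 24 h this sum was 48750 to 55640 in unconditioned and 34090 to 37270 in conditioned medium. At 48 h it was 32770 to 44110 in unconditioned and 46500 to 48630 in conditioned medium. The sum is mostly Acta2 and Tagln, and its members differed. Of the 6 tested genes, 4 lay above the median change of all probes in conditioned medium at 24 h and 2 below. There 1 was called higher and 0 lower. In conditioned medium at 24 h Cnn1, a contractile protein of smooth muscle, read 953 and 1037, below every time zero array (1251 to 2094), and Myh11, the smooth muscle myosin heavy chain, read 182 ± 30.9 (SD, n = 2) against 246 ± 57.5 (SD, n = 4), neither of them called (adjusted p = 0.27 and 0.57). Conditioned minus unconditioned medium had a median of -0.67 over the 6 tested genes at 24 h and 0.16 at 48 h, given without a test. Against time zero 1, 1, 3 and 3 of the 6 rose, where 0.739%, 2.57%, 2.03% and 5.39% of all probes were called higher. Rgs5, a pericyte marker, was at the floor on all arrays of conditioned 24 h and of both 48 h groups. The sum of 7 endothelial markers ran from 1086 to 1619 at time zero and from 3313 to 3541 in conditioned medium at 48 h. There 6 were called higher and Kdr lower, as in unconditioned medium at 48 h. Over all probes 5.39% were called higher and 1.07% lower in conditioned medium at 48 h. In unconditioned medium at 48 h these shares were 2.03% and 0.869%. Sums of 5 epicardial markers were 289 to 398 at time zero and 360 to 1770 later, and those of 5 leukocyte markers 883 to 1067 and 935 to 1936. Of the 4 tested in either list, 1 epicardial marker was called higher in each medium at 48 h. In unconditioned medium at 48 h 1 leukocyte marker was called higher. The sum of 8 cardiomyocyte markers ran from 108800 to 226600 at time zero and from 132000 to 234500 later. The part of these cells in the results was not tested.

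**Figure D4:**
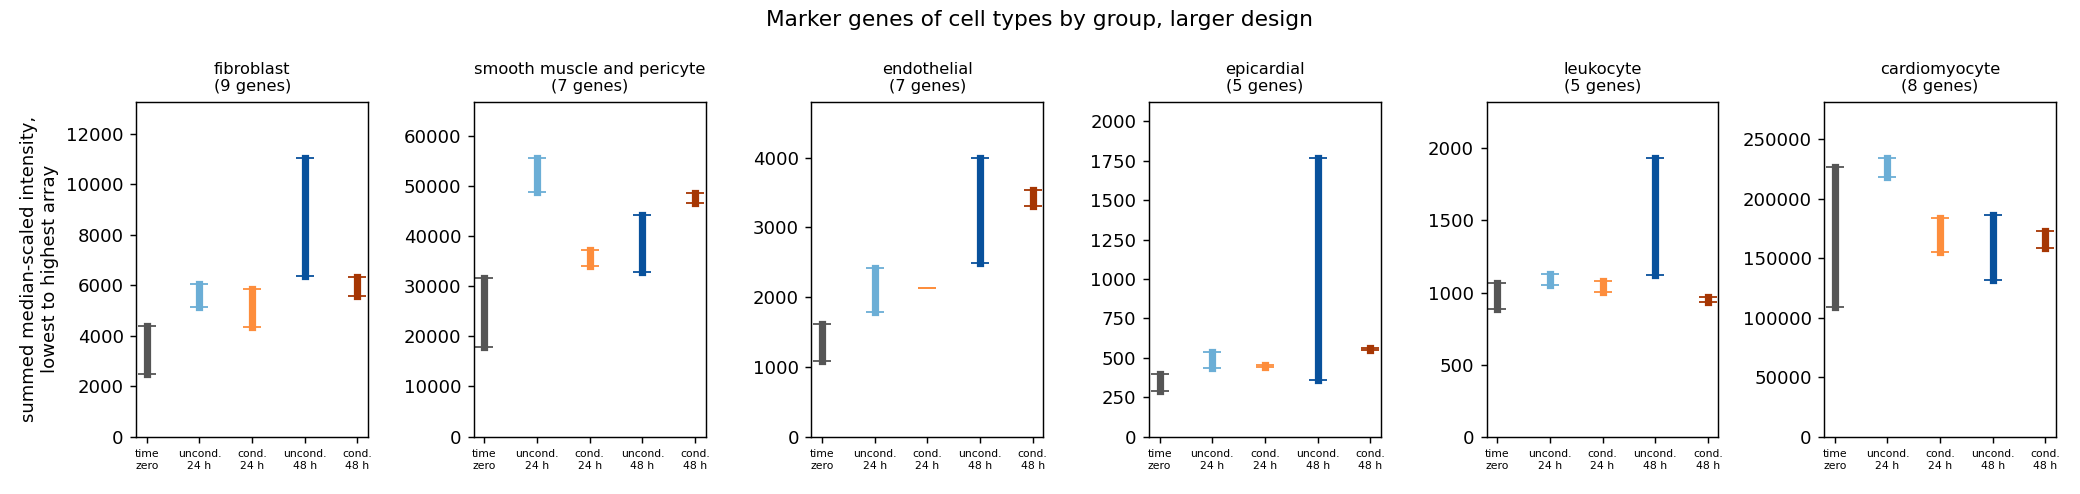
Summed scaled intensity of marker genes for 6 cell types, from the lowest to the highest array of each group on the larger design, on linear axes from 0. Smooth muscle and endothelial sums at time zero lie below those of every other group. The smooth muscle sum is mostly Acta2 and Tagln. At 24 h it is lower in conditioned (34090 to 37270) than in unconditioned medium (48750 to 55640). At 48 h it is higher in conditioned (46500 to 48630) than in unconditioned medium (32770 to 44110).

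By the mean difference between profiles over the 5 groups (the root mean square of centred log2 group means, 9952 other genes), the genes most like Eln were Gli3 (0.277), Pnmt (0.382), Hr (0.388), Moxd1 (0.413) and Kcnd2 (0.505). Those most like Emilin1 probe 17030 were Cracr2b (0.224), Ntf4 (0.257), Paqr8 (0.258), Gal (0.27) and Ifitm3 (0.276). Some of these profiles came near the floor, which is 2.26 on the log2 scale. In conditioned medium at 48 h Kcnd2, Moxd1 and Gli3 had log2 means of 2.72, 3.09 and 3.52. At time zero Ntf4 and Gal had log2 means of 3.81. The likeness rests on the same 12 arrays and is a description with no test.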

How the data were processed

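RNA from 18 samples was labelled with biotin and hybridised to CodeLink arrays, 12 of a larger and 6 of a smaller design, per the labels' protocols. The authors deposited linear intensity values, and their background correction and normalization are not given in the sources used here. Array medians ran from 70.3 to 143.6 and from 213.8 to 415.7. Each array was scaled to the geometric mean of its table's medians, floored at 0.05 of it and log2-transformed. The filter removed the lowest 30% of probes by mean. Groups were taken from the sample labels. The 5 groups of the larger table were fitted in R 4.3.3 with lmFit and trended eBayes from limma 3.58.1 (7 residual and 10.4 prior degrees of freedom), with Benjamini-Hochberg adjustment over all probes. The script was tested on simulated data. The smaller table was kept apart and not tested. Of the larger table's probes, the annotation named 1 gene for 16753, several genes for 165 and no gene for 16931, and only the first were named here. All member probes are reported. Genes of the pathway lists are named where called, or as relatives of those. Cell type markers are mostly given as sums and counts, and not all called ones are named. The likeness rule took the 5 nearest genes. The members, lists and alternatives were chosen with earlier results of these data known. Alternatives concerned normalization, floor, filter, variance model, samples, single arrays and, chosen after seeing the data, centring. Plots used Python 3.11.15 and matplotlib 3.10.9.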

Additional observations from a re-analysis of the deposited data

Results flagged for a closer look

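At time zero on the larger design, 1 array lay far from the other 3 for 4 member probes. Mfap5 read 972 on replicate 4 against 98.4 to 121 on the others. Fbln5 read 63.9 on replicate 6 against 9.29 to 15.7. Emilin1 probe 216106 read 97.7 on replicate 5 against 35.1 to 43.0. Fbn1 probe 222106 read 38.7 on replicate 6, with a highest value of 6.16 on the others. The rule would mark about 1 group in 20 by chance if the values were normally distributed. These are linear intensities, some of them at or near the floor, so the chance rate here is not known.

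The log2 change of Eln against time zero had opposite signs in the media. At 24 h it was -1.50 in conditioned and 0.61 in unconditioned medium, and at 48 h it was -2.20 and 1.02. Of these only the change in conditioned medium at 48 h was called, and the unconditioned arrays overlapped with time zero. The difference between media was not tested, since it led to the choice of the gene.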

How the results depend on the processing

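No called change of a member probe changed direction under the alternatives run. Some uncalled ones did, among them those of Mfap5, Fbln5 and Emilin1 probe 216106. Counts of called member probes against time zero moved as follows. In unconditioned medium at 24 h (2 called) both designs together gave 1 of 4 genes. In conditioned medium at 24 h (4 called) the count was 2 without an intensity trend, 1 with only the compared groups and 2 of 4 genes over both designs. In unconditioned medium at 48 h (2 called) it was 6 under cyclic loess, 5 at the 75th percentile and 4 without the 3 arrays that stood apart. In conditioned medium at 48 h (5 called) both designs together gave 3 of 4 genes. From 24 h to 48 h (0 called) unconditioned medium gave 1 under cyclic loess, and conditioned medium gave 2 under cyclic loess, 3 with array weights, 3 with only the compared groups and 1 without the 3 arrays. The median difference between media at 48 h was -0.54 on the smaller design alone, against -0.05. With single arrays left out, the counts ran from 0 to 2, 0 to 5, 2 to 2 and 3 to 6 against time zero and were 0 from 24 h to 48 h in both media, and the median difference between media at 24 h lay between -0.23 and 0.04 and at 48 h between -0.08 and 0.04. The count was 0 without unconditioned 24 h replicate 3, and in conditioned medium at 24 h it was 0 without conditioned 24 h replicate 2 or 3 and 2 without time zero replicate 5. At 48 h in conditioned medium it was 3 without conditioned 48 h replicate 2. A group left with 1 array was assumed to vary like the others. Calls over all 23694 probes moved too, given here as higher and lower. In unconditioned medium at 48 h they were 480 and 206 with the main settings. Cyclic loess gave 1516 and 1477, and the 75th percentile 1133 and 974. In conditioned medium at 24 h the main 609 and 142 became 374 and 99 without an intensity trend. From 24 h to 48 h in conditioned medium the main 1 and 0 became 55 and 6 under cyclic loess. Array weights gave 884 and 587 there. The cause of these moves was not tested. The smaller design alone gives no counts, with 1 array per medium and time. No paired analysis was possible because the labels carry no replicate numbers. Fbln1, Fbln5 and the second Fbn1 probe lay at or near the floor, so a difference in them may not be detectable.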
